A study of Mus musculus with 12 samples.

Results

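The transcripts of the IL-33 receptor and of the other IL-1 family receptors and their regulators were followed in lung group 2 innate lymphoid cells (ILC2s) with and without IL-33 in vivo. The group held 10 genes, chosen by name, of the 24346 gene symbols measured: the receptor chains *Il1rl1*, *Il1rap*, *Il18r1*, *Il18rap* and *Il1r1*, the decoy receptor *Il1r2*, the antagonist *Il1rn*, the inhibitory receptor *Sigirr*, the adaptor *Myd88* and the inhibitory kinase *Irak3*. All 10 symbols had a value in each of the 12 libraries, though 4 of them were listed at 0 in at least 1 library. The study asked what the semaphorin Sema6D does in ILC2s, and compared WT mice with Sema6D-deficient (*Sema6d*-/-) mice, all on the C57BL/6J background and 7 to 12 weeks old. Mice received PBS or IL-33 through the nose for 3 days, at 500 ng per day in the methods but 50 ng in the sample labels, and RNA of sorted lung ILC2s was sequenced in 3 libraries per group: WT given PBS, *Sema6d*-/- given PBS, WT given IL-33 and *Sema6d*-/- given IL-33. The sources do not say whether a library came from 1 mouse, so the p-values measure the spread between these libraries, which may be partly technical. Levels are FPKM, fragments scaled to transcript length and to the size of the library, so that genes can be compared per length.

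IL-33 is an alarmin released from damaged barrier cells, and lung ILC2s are among its main targets. It binds ST2, the product of *Il1rl1*, which pairs with the shared accessory chain encoded by *Il1rap*; the cytoplasmic domains of the pair recruit MyD88 and IRAK kinases and so activate NF-κB and MAP kinases. IL-18 signals in the same way through the products of *Il18r1* and *Il18rap*, whereas the IL-1 receptor type 2 binds IL-1 without signalling, IL-1 receptor antagonist occupies the type 1 receptor, and SIGIRR and IRAK-M (*Irak3*) dampen the pathway.

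*Sema6d* itself was read first as a check of the genotype labels. Its level was 27.5, 46.1 and 37.5 FPKM in the WT PBS libraries and 29.0, 22.9 and 19.8 FPKM in the *Sema6d*-/- PBS libraries, which overlapped. With IL-33 it was 19.7, 35.5 and 28.7 FPKM in WT and 15.4, 13.6 and 13.8 FPKM in *Sema6d*-/- libraries, all 3 below WT. The transcript was thus not absent in libraries labelled *Sema6d*-/-. It lay below all WT libraries only with IL-33, where 14.2% of all genes tested separated the genotypes. A value for the whole gene does not show whether the targeted exons were missing.

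The libraries differed in depth and in the number of genes detected. Relative depth, set to 1 in WT IL-33 replicate 3, was 0.739, 0.889 and 0.887 in WT PBS, 0.842, 0.860 and 0.998 in *Sema6d*-/- PBS, 1.39, 1.10 and 1 in WT IL-33 and 1.12, 0.968 and 1.06 in *Sema6d*-/- IL-33 libraries. WT PBS replicates 1 and 2 and *Sema6d*-/- PBS replicate 1 stood apart, with 8356, 8026 and 7696 genes above 1 FPKM against 9084 to 9287 in the other PBS libraries and 9917 to 10081 in the IL-33 libraries. Of the 3795 genes whose mean reached 20 FPKM, 122, 137 and 165 were listed at 0 in those 3 libraries, and 59 to 87 in the other 9. A level of 0 is therefore given only as listed.

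The sort gate for ILC2s included ST2, so cells were selected on the protein of *Il1rl1*, and its lineage antibodies, among them those to NK1.1, F4/80, CD11c and Gr-1, would remove most NK cells, macrophages, dendritic cells and neutrophils. Of 12 ILC2 markers, 11 or 12 exceeded 1 FPKM in each PBS library and all 12 in each IL-33 library, led by *Id2*, with a summed level of 5696 to 9100 FPKM with PBS and 5914 to 7369 FPKM with IL-33. The sum hides changes of single markers over both genotypes: 1 was higher, *Klrg1*, and 4 were lower, *Il2ra*, *Il5*, *Icos* and *Areg*. *Il2ra* was 96.2 to 132 FPKM with PBS and 19.0 to 47.5 FPKM with IL-33, without overlap (log2 fold change −1.86 ± 0.17 (SE), limma adjusted p = 7.55e-05), and this call stayed in all 22 alternatives. Those of *Klrg1*, *Areg*, *Il5* and *Icos* were lost in 1, 5, 6 and 12 of them. Markers of NK cells or ILC1s and of macrophages were scarce in most libraries, with exceptions that touch the receptors. *Sema6d*-/- PBS replicate 2 held all 7 markers of NK cells or ILC1s above 1 FPKM, summing to 181 FPKM and led by *Klre1* at 65.8 FPKM, against 0 to 7.93 FPKM in the other 11 libraries. Summed macrophage markers were 189 FPKM in that library, 429 FPKM in *Sema6d*-/- IL-33 replicate 2 and 150 FPKM in *Sema6d*-/- IL-33 replicate 3, against 0.815 to 17.2 FPKM in the other 9. *Lyz2* led in the first of these at 112 FPKM, with *Chil3* at 51.1 FPKM. *Chil3* led in the other 2 at 394 and 83.1 FPKM, where *Adgre1*, *Mrc1*, *Marco* and *Fcgr1* were listed at 0. *Csf1r* stayed at or below 0.0718 FPKM in all 12. Of the 13 markers, 6, 6 and 5 exceeded 1 FPKM in these 3 libraries, and 6 in each were listed at 0. *Cd68*, at 0 to 0.456 FPKM with PBS and 0 to 4.87 FPKM with IL-33, was the 1 of 13 macrophage markers called over both genotypes, higher with IL-33 (1.13 ± 0.28 (SE), limma adjusted p = 0.0291), a call that 9 of 22 alternatives ended (adjusted p 0.0223 to 0.410 over them). In bulk samples, fewer cells of a type and less RNA per cell cannot be told apart.

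Most of the remaining marker lists were low or rested mainly on a single gene, the epithelial list being an exception. For neutrophils, which carry much IL-1 receptor type 2, the 9 markers summed to 6.54 to 16.3 FPKM with PBS and 6.63 to 14.2 FPKM with IL-33, with *Cxcr2* the most abundant at 5.45 to 11.2 FPKM, and *S100a8* and *S100a9* were listed at 0 in all 12 libraries. For mast cells and basophils, which also carry ST2, the sum was 42.9 to 95.2 FPKM with PBS and 17.8 to 41.9 FPKM with IL-33, nearly all from *Cpa3*, and *Mcpt8* and *Mcpt4* were listed at 0 in all 12. *Cd3g* made up nearly all of the T cell sum of 190 to 483 FPKM with PBS and 204 to 318 FPKM with IL-33, with *Cd4* listed at 0 throughout. Epithelial markers summed to 32.2 to 71.8 FPKM with PBS and 7.07 to 101 FPKM with IL-33, with *Epcam* at 16.4 to 54.0 and 0 to 8.71 FPKM, lower with IL-33 (−2.95 ± 0.52 (SE), limma adjusted p = 0.00482; range over the alternatives 0.00115 to 0.0766). The highest epithelial sum with IL-33, in *Sema6d*-/- replicate 3, came from *Sftpc* at 97.2 FPKM, and the highest with PBS, in *Sema6d*-/- replicate 2, from *Scgb1a1* at 22.4, *Epcam* at 22.3 and *Krt8* at 19.5 FPKM. B cell markers summed to 0 to 8.90 FPKM with PBS and 3.49 to 26.9 FPKM with IL-33, led on average by *Cd79b*, which was higher with IL-33 (2.94 ± 0.63 (SE), limma adjusted p = 0.015; range over the alternatives 0.0015 to 0.219), while *Ms4a1* and *Pax5* were listed at 0 in all 12. Dendritic cell markers summed to 0.252 to 20.5 FPKM with PBS, median 5.93, and 8.08 to 19.8 FPKM with IL-33, median 16.3, most of it from *Xcr1* and *Zbtb46*, and 0 of 6 were called. Sums stayed at or below 23.1 FPKM for endothelium, 4.51 FPKM for mesenchyme and 1.99 FPKM for eosinophils, with *Pecam1*, *Col3a1* and *Ccr3* the most abundant on average. *Cldn5* was 12.7 FPKM in *Sema6d*-/- PBS replicate 2, which set the endothelial maximum.

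With IL-33, *Il1r2*, *Il18r1* and *Il18rap* rose, while *Il1rl1*, which encodes the IL-33 receptor chain ST2, stayed within the range seen with PBS. *Il1rl1* was already abundant with PBS, at 186, 117 and 148 FPKM in WT and 269, 196 and 168 FPKM in *Sema6d*-/- libraries. With IL-33 it was 165, 205 and 209 FPKM in WT and 190, 190 and 181 FPKM in *Sema6d*-/- libraries. All 6 IL-33 libraries lay between the lowest and the highest PBS library, and the SD over 6 libraries was 51.6 FPKM with PBS and 16.1 FPKM with IL-33. Over both genotypes the log2 fold change on the log2(FPKM + 1) scale was 0.12 ± 0.15 (SE; limma adjusted p = 0.694), with a 95% interval of −0.21 to 0.44. A gene-level value sums the membrane and the soluble form of ST2, which are made from the same gene and could not be separated. *Il1rap*, the accessory chain, was much scarcer, at 5.15, 12.3 and 10.5 FPKM in WT PBS, 10.02, 16.5 and 8.01 FPKM in *Sema6d*-/- PBS, 4.73, 8.68 and 9.35 FPKM in WT IL-33 and 7.87, 6.49 and 8.72 FPKM in *Sema6d*-/- IL-33 libraries. Its groups overlapped throughout, and its log2 fold change was −0.36 ± 0.31 (SE; limma adjusted p = 0.551).

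Both chains of the IL-18 receptor rose. *Il18r1*, the ligand-binding chain, was 7.42, 0.778 and 1.85 FPKM in WT PBS and 0.147, 15.1 and 2.04 FPKM in *Sema6d*-/- PBS libraries. With IL-33 it was 15.1, 24.3 and 23.9 FPKM in WT and 24.2, 24.3 and 34.1 FPKM in *Sema6d*-/- libraries. The highest PBS library, *Sema6d*-/- replicate 2 at 15.128 FPKM, fell just short of the lowest IL-33 library, WT replicate 1 at 15.134 FPKM, so the separation rested on a very small gap. That PBS library is the one that held NK cell and ILC1 markers, cells known for IL-18 receptors that the lineage gate should remove; the part of those cells in its value was not tested. Without it, the log2 fold change in *Sema6d*-/- mice was 3.92 (limma adjusted p = 0.0145) in place of 2.88 ± 0.86 (SE; limma adjusted p = 0.116), and over the alternatives tried the adjusted p there ranged from 0.0145 to 0.319. In WT mice the log2 fold change of *Il18r1* was 2.63 ± 0.86 (SE; limma adjusted p = 0.124), and 2.14 to 3.27 with single libraries left out. Its ratio of mean FPKM in WT moved from 6.30 to 16.1 without PBS replicate 1. *Il18rap*, the signalling chain, was 12.2, 4.32 and 19.0 FPKM in WT PBS and 14.9, 19.0 and 26.4 FPKM in *Sema6d*-/- PBS libraries. With IL-33 it was 42.0, 44.7 and 51.8 FPKM in WT and 49.6, 48.6 and 33.8 FPKM in *Sema6d*-/- libraries, each above all 6 PBS libraries.

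Over both genotypes the log2 fold change was 2.75 ± 0.61 (SE; limma adjusted p = 0.0165) for *Il18r1* and 1.59 ± 0.31 (SE; limma adjusted p = 0.00859) for *Il18rap*, with the higher level in 6 of 6 IL-33 libraries. As ratios of mean FPKM, *Il18r1* was 5.33-fold and *Il18rap* 2.83-fold higher with IL-33, and *Il18r1* 9.93-fold without *Sema6d*-/- PBS replicate 2. An exact two-sided permutation test of treatment within genotype gave p = 0.005 for each, the smallest that the 400 assignments can give. Without the 3 libraries rich in macrophage markers, *Il18rap* lost its call (log2 fold change 1.68, limma adjusted p = 0.116; range over the alternatives 0.00336 to 0.116) and *Il18r1* kept it.

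*Il1r2*, the decoy receptor that takes up IL-1 without signalling, had the largest change of the 10 genes. With PBS its level was 0.146, 15.5 and 27.2 FPKM in WT and 26.7, 25.3 and 0 FPKM in *Sema6d*-/- libraries. With IL-33 it was 647, 928 and 1229 FPKM in WT and 858, 420 and 353 FPKM in *Sema6d*-/- libraries. Every IL-33 library thus exceeded the highest PBS library, and 2 PBS libraries, 1 of each genotype, were at or near 0. The ratio of mean FPKM was 46.8 over both genotypes. It was 65.5 in WT, where it became 120 without PBS replicate 3, and 31.4 in *Sema6d*-/- libraries, where it became 20.9 without PBS replicate 3. On the log2(FPKM + 1) scale, where changes of low values appear smaller than they are, the difference was 6.31 ± 0.94 (SE; limma adjusted p = 0.0018) over both genotypes, with a 95% interval of 4.24 to 8.38 and an exact permutation p of 0.005. It was 5.51 without *Sema6d*-/- PBS replicate 3 and 6.76 without WT PBS replicate 3, the extremes over single libraries left out. Among neutrophil transcripts in the same libraries, *S100a8* and *S100a9* were listed at 0 and *Csf3r* was at most 0.343 FPKM, whereas *Cxcr2* was 5.45 to 11.2 FPKM in all 12. *Mmp9* was 1.155 to 1.95 FPKM in 5 of the 6 IL-33 libraries and 7.58 FPKM in WT PBS replicate 1, and *Retnlg* reached 3.79 FPKM in *Sema6d*-/- IL-33 replicate 2.

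The signalling type 1 receptor and its antagonist were listed at 0 in most libraries. *Il1r1* was listed at 0 in 10 of the 12 libraries and at 2.70 FPKM in *Sema6d*-/- PBS replicate 3 and 0.434 FPKM in *Sema6d*-/- IL-33 replicate 1. *Il1rn* was listed at 0 in 7 libraries and reached at most 0.402 FPKM, in *Sema6d*-/- IL-33 replicate 2. That library had the highest summed macrophage marker FPKM, most of it from *Chil3*. Whether macrophages, which the lineage gate should remove, supplied the *Il1rn* value was not tested. No fold change is given for either gene. Both fell below the mean of 0.5 FPKM that 8 of the 10 genes passed, and were kept in the fit because they were listed by name.

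Among the regulators inside the cell, *Irak3*, which encodes IRAK-M, lay lower with IL-33. It was 19.3, 27.0 and 9.23 FPKM in WT PBS and 18.9, 33.3 and 8.07 FPKM in *Sema6d*-/- PBS libraries, against 7.35, 7.69 and 5.49 FPKM in WT IL-33 and 6.05, 6.36 and 10.9 FPKM in *Sema6d*-/- IL-33 libraries. The WT groups did not overlap, whereas in *Sema6d*-/- mice the highest IL-33 library exceeded the lowest PBS library. The mean was 2.64-fold higher with PBS, but the log2 fold change of −1.16 ± 0.38 (SE) missed the threshold (limma adjusted p = 0.0859; range over the alternatives 0.0285 to 0.339). It passed without WT PBS replicate 3 (−1.36, limma adjusted p = 0.0437) or without *Sema6d*-/- PBS replicate 3 (−1.41, limma adjusted p = 0.0285), the 2 PBS libraries lowest in *Irak3*. Leaving out the 3 PBS libraries with the fewest genes reduced it to −0.72 (limma adjusted p = 0.339). *Cpa3*, the most abundant mast cell and basophil marker, also fell; it was 42.9 to 89.3 FPKM with PBS and 17.8 to 40.0 FPKM with IL-33 (−1.35 ± 0.26 (SE), limma adjusted p = 0.00811; range over the alternatives 0.00586 to 0.0322). The lineage antibodies included clone MAR-1, printed as against FcγRIα but known for the IgE receptor of mast cells and basophils, which should remove those cells, and of its chains *Fcer1a* was listed at 0 in 11 of the 12 libraries and *Ms4a2* at 0 in 10. Whether *Cpa3* and *Irak3* were read from such cells was not tested.

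*Sigirr*, the inhibitory receptor, was 38.5, 10.6 and 53.0 FPKM in WT PBS and 34.0, 49.9 and 57.0 FPKM in *Sema6d*-/- PBS libraries, and ranged from 46.3 to 58.4 FPKM over the 6 libraries of IL-33-treated mice. WT PBS replicate 2 alone was far below the rest. *Myd88*, the adaptor of the signalling receptors, was 0.390, 0 and 56.4 FPKM in WT PBS and 0, 47.9 and 11.04 FPKM in *Sema6d*-/- PBS libraries, against 35.3, 23.4 and 23.7 FPKM in WT IL-33 and 32.1, 37.9 and 13.5 FPKM in *Sema6d*-/- IL-33 libraries. Its 3 values at or near 0 came from the 3 PBS libraries with the fewest genes, and its highest 2 also came from PBS libraries. Neither gene passed the threshold over both genotypes (*Sigirr* 0.52 ± 0.33 (SE), limma adjusted p = 0.397; *Myd88* 2.18 ± 1.10 (SE), limma adjusted p = 0.273), and without those 3 libraries the differences were −0.035 and −0.45. Without WT PBS replicate 3, *Myd88* passed (3.12, limma adjusted p = 0.0474; range over the alternatives 0.0474 to 0.611).

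**Figure D1:**
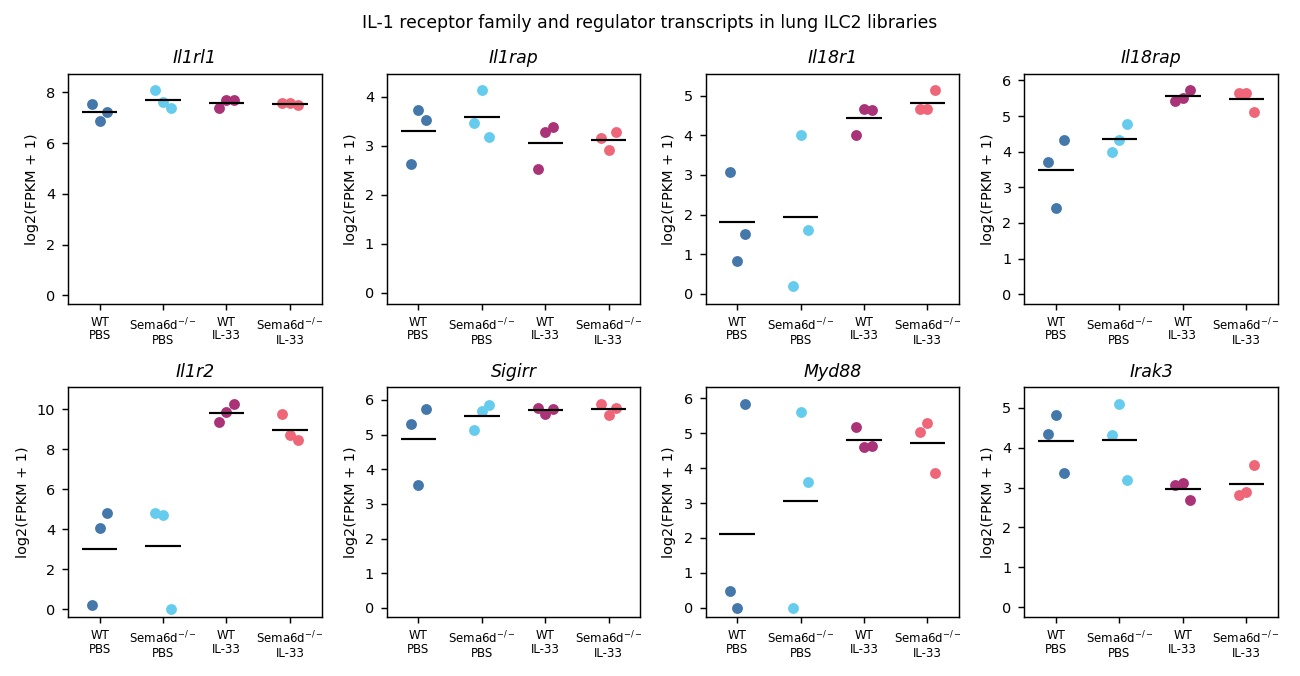
The 8 genes whose mean reached 0.5 FPKM, in each of the 12 libraries, on the log2(FPKM + 1) scale; each point is a library and each bar the mean of the 3 libraries of a group. *Il18r1*, *Il18rap* and *Il1r2* separate the IL-33 libraries from the PBS libraries, and *Myd88*, *Il1r2* and *Il18r1* have PBS libraries at or near 0.

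Counted over both genotypes, 3 of the 10 genes were higher with IL-33 and 0 lower by limma at an adjusted p under 0.05, beside 5.89% higher and 3.15% lower of the 11462 genes tested. At an unadjusted p under 0.05, 4 of the 10 passed, beside 2623 of the 11462 genes, the fourth being *Irak3*, which was lower. The median log2 fold change was 0.32 over the 10 genes and 0.16 over all genes; quantile normalization moved the latter to −0.03, and the same number of genes, 3, was called. All 6 IL-33 libraries lay above all 6 PBS libraries in 3 of the 10 genes, beside 4.1% of the genes tested, and below them in 0 of the 10, beside 2.32%. Within WT mice, *Il1r2* (6.80 ± 1.33 (SE), limma adjusted p = 0.0155) and *Il18rap* (2.07 ± 0.44 (SE), limma adjusted p = 0.0226) were higher, 2 of 10 genes beside 2.76% of all. Leaving out any WT IL-33 library ended both calls, at adjusted p of 0.0533 to 0.0692 for *Il1r2* and 0.0735 to 0.0933 for *Il18rap*, with log2 fold changes of 6.58 to 7.04 and 1.99 to 2.13. Without single PBS libraries both calls stayed, but the size moved more, from 5.39 (without replicate 1) to 7.70 (without replicate 3) for *Il1r2* and from 1.53 (without replicate 2) to 2.49 (without replicate 3) for *Il18rap*. Leaving out the 3 PBS libraries with the fewest genes leaves 1 WT PBS library, from which no call is read. The log2 fold changes were then lower still, at 5.005 for *Il1r2* and 1.232 for *Il18rap*. Within *Sema6d*-/- mice, *Il1r2* was higher (5.81 ± 1.33 (SE), limma adjusted p = 0.0419), 1 of 10 genes beside 1.92% of all. That call was lost in 10 of 17 alternatives (adjusted p 0.0175 to 0.321 over them), among them those without PBS replicate 3 or any IL-33 library, and with single libraries left out the log2 fold change ranged from 4.22 (without PBS replicate 3) to 6.62 (without PBS replicate 1). *Il18rap* there was 1.11 ± 0.44 (SE; limma adjusted p = 0.244), and its interaction with genotype was −0.96 (limma adjusted p = 0.882). The groups of 3 did not overlap for either IL-18 receptor chain or *Il1r2* in either genotype, where an exact permutation test cannot give less than 0.10. The share of all genes that separate within a genotype is not given here, so these separations are not read as particular to the receptors.

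The genotypes were then compared. Under IL-33, limma called 0 of the 10 genes, beside 0.00872% of all genes (1 gene). At an unadjusted p under 0.05, 0 of the 10 passed, beside 226 of the 11462 genes. A fit of the IL-33 libraries alone called 0 of all genes tested, so its 0 of these 10 says nothing particular to them. The genotypes separated in 0 of the 10 genes, beside 14.2% of all genes, a share at which few of 10 would separate. For *Il1rl1* the difference between *Sema6d*-/- and WT under IL-33 was −0.038 with a 95% interval of −0.50 to 0.43, and its sign changed with the setting. For *Il1r2*, 2 of the 3 *Sema6d*-/- libraries, at 420 and 353 FPKM, lay below the lowest WT library at 647 FPKM and the third, at 858 FPKM, within the WT range; the difference was −0.84 with a 95% interval of −3.77 to 2.08. Those 2 libraries were the ones with a high summed macrophage marker FPKM, most of it from *Chil3* and *Lyz2*. Without the 3 libraries with the most macrophage marker FPKM, 1 *Sema6d*-/- IL-33 library was left and the *Il1r2* difference was −0.074. The 2 left out of that group were the lowest in *Il1r2*, so this smaller difference followed from the choice of libraries. The part of macrophages in the lower level was not tested.

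With PBS, limma called 0 of the 10 genes, beside 0.619% of all. At an unadjusted p under 0.05, 1 of the 10 passed, *Il1rl1*, beside 1491 of the 11462 genes. A fit of the PBS libraries alone called 0 of the 10, beside 1 of all genes tested. The *Il1rl1* mean was 211 FPKM in *Sema6d*-/- libraries (SD 52.1 FPKM over 3 libraries) and 150 FPKM in WT (SD 34.5 FPKM). In 1 *Sema6d*-/- library its level lay within the WT range. The log2 difference was 0.48 ± 0.21 (SE; limma adjusted p = 0.358). *Il18rap* differed by 0.88 ± 0.44 (SE; limma adjusted p = 0.431), with overlapping groups. With single libraries left out, the PBS difference ranged from 0.34 to 1.30 for *Il18rap* and from 0.29 to 0.65 for *Il1rl1*. The genotypes separated in 0 of the 10 genes, beside 8.58% of all. The interaction, which tests whether the response to IL-33 differed between the genotypes, was called in 0 of the 10 genes, beside 0.0262% of all. At an unadjusted p under 0.05, it passed in 0 of the 10, beside 659 of the 11462 genes. It was −0.52 ± 0.30 (SE) for *Il1rl1*, −0.96 ± 0.62 (SE) for *Il18rap* and −0.99 ± 1.88 (SE) for *Il1r2*, with limma adjusted p of 0.882, 0.882 and 0.942. Without single libraries the interaction ranged from −0.69 to −0.33 for *Il1rl1* and from −1.38 to −0.42 for *Il18rap*. The wide error for *Il1r2* leaves a 95% interval of −5.13 to 3.15, and the sign turned to 0.42 without WT PBS replicate 1.

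The order of the levels changed with treatment. In WT PBS libraries *Il1rl1* led at 150 FPKM, above 96.9% of all symbols, followed by *Sigirr* at 34.0 ± 21.6 FPKM (SD, n = 3), *Myd88*, *Irak3*, *Il1r2*, *Il18rap* and *Il1rap* with means of 18.9, 18.5, 14.3, 11.8 and 9.33 FPKM, and *Il18r1* at 3.35 ± 3.57 FPKM (SD, n = 3). Below *Il1rl1* the ranges of genes next to each other in that order overlapped, so the order of their means is uncertain. In WT IL-33 libraries *Il1r2* led at 934 ± 291 FPKM (SD, n = 3), above 99.4% of all symbols, and *Il1rl1* was second at 193 ± 24.2 FPKM (SD, n = 3). *Sigirr* at 51.3 FPKM and *Il18rap* at 46.1 FPKM overlapped, *Myd88* at 27.5 FPKM and *Il18r1* at 21.1 FPKM overlapped, and *Il1rap* at 7.58 FPKM and *Irak3* at 6.84 FPKM overlapped. The *Sema6d*-/- IL-33 libraries had the same order down to the sixth place, with *Il1r2* at 544 ± 274 FPKM (SD, n = 3) and *Il1rl1* at 187 ± 5.55 FPKM (SD, n = 3), and *Irak3* and *Il1rap* close together at 7.78 and 7.69 FPKM.

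The genes were chosen by name as a family, a choice that is not independent of their position. Of the 10 genes, 5 lie together on chromosome 1 within 478 kb of the plus strand (GRCm38, the build also called mm10; GENCODE vM21 annotation): *Il1r2* at chr1:40074079-40125231, *Il1r1* at chr1:40225080-40317257, *Il1rl1* at chr1:40429570-40465415, *Il18r1* at chr1:40465552-40500854 and *Il18rap* at chr1:40515362-40551705. The 3 genes that rose are all in this cluster, which holds 5 of the 10, so their sharing it says little. They do not form a block. *Il1r1*, *Il1rl2* (the IL-36 receptor) and *Il1rl1* lie between *Il1r2* and *Il18r1* and were not called. *Il18r1* begins 136 bases after the end of *Il1rl1*, with no shared exon bases, and *Il1rl1* stood at a median of 177 FPKM with PBS and 190 FPKM with IL-33 where *Il18r1* went from 1.95 to 24.2 FPKM. *Il1rl2* was listed at 0 in 3 of the 6 PBS libraries and reached 10.9, 3.67 and 8.92 FPKM in the others, against 0 to 1.79 FPKM with IL-33.

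The genes flanking the cluster were low or little changed. *Map4k4*, a MAP kinase kinase kinase kinase upstream of *Il1r2*, ranged from 1.57 to 9.30 FPKM with PBS and from 3.99 to 7.87 FPKM with IL-33. Downstream of *Il18rap*, *Slc9a4* was listed at 0 in all 12 libraries, and *Slc9a2* and *Mfsd9* did not exceed 0.508 and 0.895 FPKM. *Gm16894*, an antisense gene inside *Il1r2* at chr1:40076228-40085851, was 0, 0 and 0.636 FPKM in WT PBS, 0 in all 3 *Sema6d*-/- PBS, 1.62, 4.10 and 2.26 FPKM in WT IL-33 and 3.19, 0.583 and 2.85 FPKM in *Sema6d*-/- IL-33 libraries. It was higher with IL-33 by 1.57 ± 0.31 (SE; limma adjusted p = 0.0103; range over the alternatives 0.00453 to 0.0955). Its exons share 0 bases with those of *Il1r2*, but the sources name both a stranded and an unstranded kit, so reads from unspliced *Il1r2* RNA may be counted in it. The annotated genes *4930456G14Rik*, *Gm37347*, *Gm38070*, *Gm17970*, *Gm35801*, *Gm37435*, *Gm37623* and *Gm37915* in the same window had no row of that name.

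**Figure D2:**
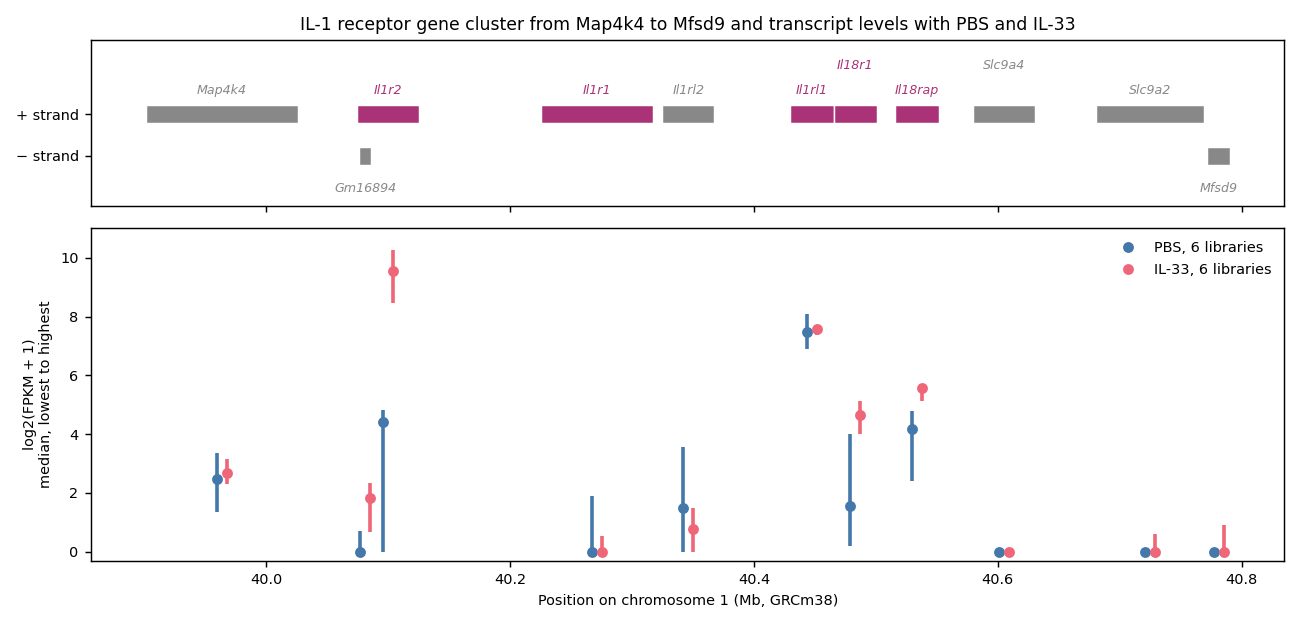
Genes with values between *Map4k4* and *Mfsd9* on chromosome 1 by strand, with the listed receptor genes in purple (top), and the median level with the lowest to highest library on the log2(FPKM + 1) scale, for 6 PBS and 6 IL-33 libraries (bottom). *Il1r2*, *Il18r1* and *Il18rap* are higher with IL-33 on either side of *Il1rl1*, whose ranges overlap.

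Promoters were read from RefSeq (GRCm38.p6), which had entries for 9 of the 10 genes, as the 250 bases before each listed start. Searched on both strands were a κB-like motif (GGG and CC with 5 bases of any kind between them), an AP-1 motif (TGANTCA) and a GATA motif (GATA with A or T before it and A or G after it), which are present in 45.8%, 6.75% and 26.5% of all 32851 promoters of that length. Of the 9 promoters listed for genes of the cluster, 4 overlap no exon, and 2 of these are shown, from *Il18rap*, which was called, and *Il1rl1*, which was not. The other two belong to *Il1r1*, of which 1 held 1 κB-like match and the other none of the 3 motifs. The upstream *Il1rl1* promoter at chr1:40429320-40429569 (plus strand) held 5 GATA matches, and the *Il18rap* promoter at chr1:40515112-40515361 (plus strand) held 1; capitals mark the matches, and neither held a κB-like or AP-1 match.
Il1rl1: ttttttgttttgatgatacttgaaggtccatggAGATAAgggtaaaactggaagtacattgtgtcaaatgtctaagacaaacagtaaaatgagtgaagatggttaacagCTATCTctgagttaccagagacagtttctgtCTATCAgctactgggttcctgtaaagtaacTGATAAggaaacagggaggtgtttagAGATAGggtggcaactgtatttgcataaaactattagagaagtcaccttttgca
Il18rap: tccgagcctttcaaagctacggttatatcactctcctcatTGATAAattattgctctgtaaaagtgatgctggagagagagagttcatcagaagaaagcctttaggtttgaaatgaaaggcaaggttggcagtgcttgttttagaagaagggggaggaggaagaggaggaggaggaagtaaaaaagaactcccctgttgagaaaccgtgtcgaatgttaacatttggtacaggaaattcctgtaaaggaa

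The single *Il1r2* promoter listed, at chr1:40085843-40086092, held 1 GATA match, 86 to 81 bases before the start, and 117 of its bases lie in annotated exons of *Il1r2* or *Gm16894*. Of the 3 *Il18r1* promoters, the upstream 2 each have 114 bases in annotated exons of *Il1rl1* or *Il18r1* and held no match to any of the 3 motifs, and the third held 1 κB-like match. Among genes that were not called, *Il1rap* held 6 κB-like matches, some overlapping, *Il1rn* had κB-like matches in 2 of its 3 promoters and an AP-1 match in 1, *Irak3* had κB-like matches in 1 of its 2 promoters and a GATA match in the other, the second *Il1rl1* promoter held 1 GATA match, and *Myd88* held none. None of the 3 motifs thus had a match in all 3 genes that rose. The listed *Il1r2* promoter lies inside the gene span given above, and which start these cells use was not tested. A match is only a run of letters and does not show that a factor binds there.

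Of 3 further receptor genes (*Il1rl2*, *Il1rapl1* and *Il1rapl2*) and of 10 ligand and IL-18 binding protein genes, limma called 0 over both genotypes and 0 passed at an unadjusted p under 0.05. Only 1 of those receptor genes and 2 of the ligand and binding protein genes had a mean above 0.5 FPKM, and *Il33*, *Il1f5*, *Il1f6*, *Il1f8*, *Il1f10*, *Il1rapl1* and *Il1rapl2* were listed at 0 in all 12 libraries, so for most of them a call was hardly possible. *Il18* was listed at 0 in 10 libraries and at 29.4 FPKM in *Sema6d*-/- PBS replicate 2, the library with NK cell and macrophage markers; the part of those cells was not tested. Among 25 kinases and adaptors that act below the receptors, 0 were higher and 2 lower, beside 5.89% and 3.15% of all genes, and 2 and 4 passed at an unadjusted p under 0.05, beside 1771 and 852 of 11462, with a median log2 fold change of −0.077. *Ikbkb*, which encodes the IκB kinase that releases NF-κB, had a median of 73.8 FPKM with PBS, range 65.7 to 99.0, and of 41.2 FPKM with IL-33, range 32.1 to 52.2, without overlap. It fell by 0.84 on the log2 scale (SE 0.14, limma adjusted p = 0.0036). The change was −0.98 ± 0.20 (SE, limma adjusted p = 0.0193) in WT and −0.71 ± 0.20 (SE, limma adjusted p = 0.0931) in *Sema6d*-/- mice. *Mapk14*, which encodes the p38α kinase, was lower by −0.57 ± 0.16 (SE; limma adjusted p = 0.0474), a call that 15 of 22 alternatives ended (adjusted p 0.0164 to 0.315 over them).

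Of 15 NF-κB subunits and inhibitors, 0 were higher and 5 lower, beside the same 5.89% and 3.15%, and 1 and 6 passed at an unadjusted p under 0.05, beside the same 1771 and 852, with a median log2 fold change of −0.34. *Nfkbiz*, an atypical IκB protein, had a median of 733 FPKM with PBS, range 714 to 1153, and of 311 FPKM with IL-33, range 254 to 363, and changed by −1.36 ± 0.12 (SE; limma adjusted p = 7.6e-05). *Tnfaip3*, the ubiquitin-editing inhibitor A20, changed by −0.66 ± 0.10 (SE; limma adjusted p = 0.00205), *Nfkbid* by −0.72 ± 0.11 (SE; limma adjusted p = 0.00175) and *Nfkbia*, the classical IκBα, by −0.78 ± 0.16 (SE; limma adjusted p = 0.012). *Nfkbia* overlapped, since *Sema6d*-/- PBS replicate 2 at 2541 FPKM lay within the IL-33 range of 2412 to 2706 FPKM, and its call was lost without the trend in the fit (adjusted p = 0.0513; range over the alternatives 0.00214 to 0.0513). The subunit gene *Rela* changed by −0.46 ± 0.11 (SE, limma adjusted p = 0.0293), a call that 9 of 22 alternatives ended (adjusted p 0.0159 to 0.156 over them). Within WT mice 4 of the 15 were called lower, beside 1.64% of all genes, and within *Sema6d*-/- mice 1, beside 1.2%. *Nfkbia* changed by −1.12 ± 0.23 (SE, limma adjusted p = 0.0182) in WT and −0.44 ± 0.23 (SE, limma adjusted p = 0.397) in *Sema6d*-/- mice. The interaction was called in 0 of the 15, beside 0.0262% of all.

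The genes most like each receptor over the 12 libraries were found by the mean absolute difference of log2(FPKM + 1), after each gene's own mean was taken off, among 7411 other genes whose mean reached 5 FPKM. For *Il1r2* they were *Ifi27l2a*, *Cd70* and *Tff1*, at differences of 1.24, 1.25 and 1.28 against a median gene at 3.12; *Cd70* and *Tff1* were listed at 0 in all 6 PBS libraries. For *Il18rap* they were *Spata5*, *Tcf7* and *2010111I01Rik* (0.299 to 0.316), and for *Il18r1*, *Trf*, *Kpna2* and *2610524H06Rik* (0.409 to 0.482). For *Il1rl1* they were *Tpm4*, *Atp5a1* and *Mdh1* (0.125 to 0.136), for *Il1rap*, *Mdm4*, *Atxn2l* and *Emc4* (0.165 to 0.214), and for *Sigirr*, *Dnajc1*, *Dync1li1* and *Derl1* (0.150 to 0.181). For *Myd88*, *1500011B03Rik* and *B4galt7* came closest (0.444 and 0.487), and for *Irak3*, the mast cell and basophil marker *Cpa3*, *Samd8* and *Camk1d* (0.321 to 0.327). A small difference for a gene that hardly varies says little, since many such genes lie close to each other.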

How the data were processed

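RNA of lung ILC2s, sorted as CD45+ Lin- Thy1.2+ ST2+ cells, was measured in 12 libraries. Single-end reads were mapped to mm10 by the authors, who deposited FPKM values, scaled for gene length and library size, for 24346 symbols. The methods name TopHat, Bowtie2 and Cuffnorm and a TruSeq stranded kit; the submitters' notes name TopHat2 2.1.1 and Cuffdiff 2.2.1, and the labels SMART-Seq HT and Nextera kits. The gene annotation is not given in the sources used here.

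Samples were grouped by their labels. The deposited FPKM values were tested as log2(FPKM + 1) with limma 3.58.1 in R 4.3.3 (lmFit, eBayes with a trend), with 4 group means and 8 residual degrees of freedom, over 11462 genes whose mean reached 0.5 FPKM or that were on a list; 67 listed genes were below it. P-values are two-sided, Benjamini-Hochberg adjusted over all genes tested, and called under 0.05. The contrasts share control libraries. Exact permutation tests of the mean log2 value were run for each of the 10 genes (Python 3.11.15, numpy 2.4.6, pandas 2.3.3). The fit was tested on simulated data.

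Genes and lists were chosen with earlier results of these data known. All 10 genes were described in every contrast, other pathway genes if called over both genotypes, every gene from *Map4k4* to *Mfsd9*, and the 3 most alike genes, of which 1 is not reported here. Marker lists covered ILC2s and 11 other cell types; *Ly6g* had no row. *Rela* and the called markers were named after their values were seen. FPKM values hold no read totals. Relative depth came from weak genes, of which 784 of 1727 (45.4%) had values that were whole multiples of the smallest within 0.05; no test on reads or counting interval is given. No libraries were identical (highest correlation 0.974). Alternatives were a pseudocount of 0.1, no filter, a minimum mean of 2 FPKM, quantile normalization, median ratios, no trend, array weights, a replicate block, only the groups compared and leaving out each library. Leaving out the 3 PBS libraries with the fewest genes, or the 3 with the most macrophage marker FPKM, was added after seeing the data.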

Additional observations from a re-analysis of the deposited data

How the results depend on the processing

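Over both genotypes, 3 of the 10 genes were called in most alternatives; leaving out single libraries gave 3 to 5 (5 without WT PBS replicate 3), and leaving out the 3 libraries richest in macrophage markers gave 2. *Il1r2* and *Il18r1* were called in all 22 alternatives and *Il18rap* in 21.

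In WT, 2 genes were called, but 1 with a pseudocount of 0.1, 1 with only the groups compared, 0 without the 3 PBS libraries with the fewest genes and 0 to 2 without single libraries. In *Sema6d*-/- mice, 1 was called, but 0 with a pseudocount of 0.1, no filter, no trend, only the groups compared or without the 3 libraries richest in macrophage markers, and 0 to 2 without single libraries. With the replicate block, 0 were called in *Sema6d*-/- mice, 2 in WT and 3 over both. Of 18 same-numbered pairs of libraries, 0 correlated above 0.1 (−0.047 to 0.045), so the numbers were not taken as pairs. The genotype contrasts and the interaction gave 0 in every alternative. Of all genes, 1036 were called over both genotypes (500 to 1639 over the alternatives), 504 in WT (229 to 758), 357 in *Sema6d*-/- mice (64 to 968), 1 between genotypes under IL-33 (0 to 60), 71 under PBS (1 to 456) and 3 for the interaction (0 to 177).

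Kinases and adaptors called lower numbered 2, but 1 with quantile normalization, no trend, array weights or the replicate block, and 1 to 3 without single libraries. NF-κB genes called lower numbered 5, but 3 with no trend and 4 to 6 over the other alternatives.

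Of 846 values for single genes, 745 kept direction and call, 87 lost the call, 4 gained it and 10 changed sign; the causes were not tested. The sign changes were in small *Il1rl1* differences, the *Il1r2* interaction, *Sigirr* and *Myd88*. In *Sema6d*-/- mice *Il1rl1* changed by −0.29 to 0.045 without single libraries and by 0.045 without the 3 PBS libraries with the fewest genes. Between genotypes under IL-33 it differed by −0.15 to 0.024 without single libraries and by 0.014 with quantile normalization. The *Il1r2* interaction was −2.58 to 0.42 without single libraries and 1.62 without the 3 PBS libraries with the fewest genes. It was 0.55 without the 3 libraries with the most macrophage marker FPKM. Without the 3 PBS libraries with the fewest genes, *Sigirr* changed by −0.035 and *Myd88* by −0.45 over both genotypes. Where a group was left with 1 library, that library was assumed to vary like the others. An FPKM at or near 0 may rest on few reads, as for *Il1r1*, *Il1rn* and PBS values of *Il1r2*, *Myd88* and *Il18r1*.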
